A study of Mus musculus with 6 samples.

Results

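The aquaporin water channels were followed in the stria vascularis of Errb mutant and wild-type mice. They were defined by name: every probe set whose platform annotation gave exactly 1 gene symbol, that symbol being Aqp1, Aqp2, Aqp3, Aqp4, Aqp5, Aqp6, Aqp7, Aqp8, Aqp9 or Aqp11. This gave 22 probe sets for the 10 genes, of 45037 probe sets and 18193 named genes in all. The Errb mutant mice carried a conditional knockout of Errb, which encodes estrogen-related receptor beta, an orphan nuclear receptor (current symbol Esrrb, Nr3b2 in the series title), and wild-type mice were the comparison. The sources used here do not name the Cre driver, the deleted part of the gene or the strain. Each genotype had 3 arrays numbered 1 to 3, and each array carried RNA pooled from 10 mice. Only wild-type replicate 1 carries an age label, postnatal day 3 to 5. The labels name the tissue as stria vascularis while the design text speaks of inner ears.

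Aquaporins are membrane channels that assemble as tetramers, each subunit holding its own pore. The water-selective members carry water down osmotic gradients across epithelia and endothelia, whereas the aquaglyceroporins also pass glycerol and some other small solutes. In the cochlea, water must follow the ions that the stria vascularis moves to make potassium-rich endolymph. Published work on rodents has placed Aqp1 in fibrocytes of the spiral ligament, Aqp4 in supporting cells such as Hensen and Claudius cells, and Aqp5 in outer sulcus cells.

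Aqp1 and Aqp5 were the only members whose probe sets lay above the 80th percentile of all probe sets on every one of the 6 arrays, and their upstream sequences are therefore shown. The 250 bases before each start are from RefSeq, build GRCm38.p6, on the plus strand, which is the strand of both genes. Capitals mark the GC box letters GGGCGG, the only 1 of 4 searched motifs found in either window.
Aqp1, chr6:55336049-55336298: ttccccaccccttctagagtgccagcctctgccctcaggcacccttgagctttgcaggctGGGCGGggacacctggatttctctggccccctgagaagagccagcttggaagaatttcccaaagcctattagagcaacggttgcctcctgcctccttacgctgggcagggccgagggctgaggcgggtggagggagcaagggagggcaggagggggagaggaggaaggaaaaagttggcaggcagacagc
Aqp5, chr15:99590778-99591027: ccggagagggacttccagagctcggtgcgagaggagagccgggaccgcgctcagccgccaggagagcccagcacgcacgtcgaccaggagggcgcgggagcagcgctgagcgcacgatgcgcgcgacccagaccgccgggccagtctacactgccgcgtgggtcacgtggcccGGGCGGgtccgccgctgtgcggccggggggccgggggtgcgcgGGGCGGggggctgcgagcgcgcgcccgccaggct

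The Aqp5 window was 78.4% G and C with 2 GC boxes, and the Aqp1 window was 62.0% G and C with 1. Promoters of 9 of the 10 genes were in the RefSeq table, in 11 windows. Errb binds an extended half-site, so the letters TNAAGGTCA were searched on both strands, along with the core AGGTCA that they contain, TATAAA and GGGCGG. TNAAGGTCA occurred in 0 of the 9 genes' windows and in 1.14% of 32851 promoter windows of the same length. AGGTCA occurred in Aqp7 and Aqp11, 2 of 9 genes, against 14.0% of all windows. TATAAA was found in 1 of 9 genes, Aqp3, against 12.4% of all windows. GGGCGG was found in 3 of 9, Aqp1, Aqp3 and Aqp5, against 32.7%. No match says only that these letters are not in these windows. The AGGTCA sites are shown with their surroundings because this core is what the 2 genes share. All 3 lie on the strand opposite to the gene, so that each reads as TGACCT, in capitals, in the gene's direction on the minus strand.
Aqp7, first site, chr4:41048168-41048197: gaactccacctcTGACCTcacaagggctgc
Aqp7, other site, chr4:41048046-41048075: cccctgccctacTGACCTctcccctggaga
Aqp11, chr7:97738460-97738489: tggctgcaaagaTGACCTctggggctccgt

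Each value is a log2 expression level of 1 probe set. The arrays of replicate 1 stood apart from the others in both genotypes. On them 57.6% of probe sets in the mutant and 65.4% in wild type had a value shared exactly with another probe set of the same array, against 7.46% to 8.55% on the other 4 arrays. The 3' minus 5' gap of the Gapdh control probe sets, which widens as RNA degrades, was 2.57 in the mutant and 2.28 in wild type there. On the other arrays that gap was 0.16 and 0.51 in the mutant and 0.21 and -0.04 in wild type. Results are therefore also given without replicate 1. Markers of the stria differed widely in percentile. Those of intermediate cells ran from Tyrp1 at a mean percentile of 26.8 to Dct at 99.1. Those of marginal cells ran from Atp13a5 at 47.3 to Slc12a2 at 99.1. Kcnq1 of marginal cells was at 69.0, 78.8 and 77.3 on the mutant arrays and 89.9, 94.6 and 92.6 in wild type. Col2a1, the main collagen gene of cartilage, was at 99.9. Esrrb itself averaged -0.07 ± 0.21 (SD, n = 3 pairs) in mutant minus wild type by its best expressed probe set (limma adjusted p = 0.856), and whether this probe set lies in the deleted part is unknown, so it does not check the genotype labels.

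No aquaporin passed the test between Errb mutant and wild-type stria. In limma with the replicate number as a block, 0 of 22 probe sets passed an adjusted p of 0.05, against 0.0933% of all probe sets, 42 in number, of which the mutant was higher in 5 and lower in 37. At an unadjusted p under 0.05 there were likewise 0 of 22, against 7.18% of all probe sets. Without the block the counts were again 0 and 0, against 0.00666% and 0.209%. The genotypes overlapped in all 22 probe sets, and 1.07% of all probe sets did not overlap. Array medians were 6.08, 6.94 and 6.38 in mutant replicates 1 to 3 and 6.07, 6.95 and 6.42 in wild type. Overlap of the deposited values and the fit without the block both carry this spread between replicates. They thus say little about small differences within pairs. Differences below are log2 values of the mutant minus those of wild type, as mean ± SD (n = 3 pairs of arrays with the same number), with adjusted p-values from limma with the block. Their median over the 22 probe sets was -0.0092, beside -0.0030 over all probe sets. Of the 22 mean differences 10 were above 0 and 12 below, and they ran from -0.14 to 0.33. All 22 intervals of 95% confidence included 0 and lay within 1 log2 unit, a 2-fold change, of it. Over all 45037 probe sets, 41803 intervals included 0 and 44268 lay within that bound. In bulk samples, fewer cells of a type and less RNA per cell cannot be told apart.

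**Figure D1:**
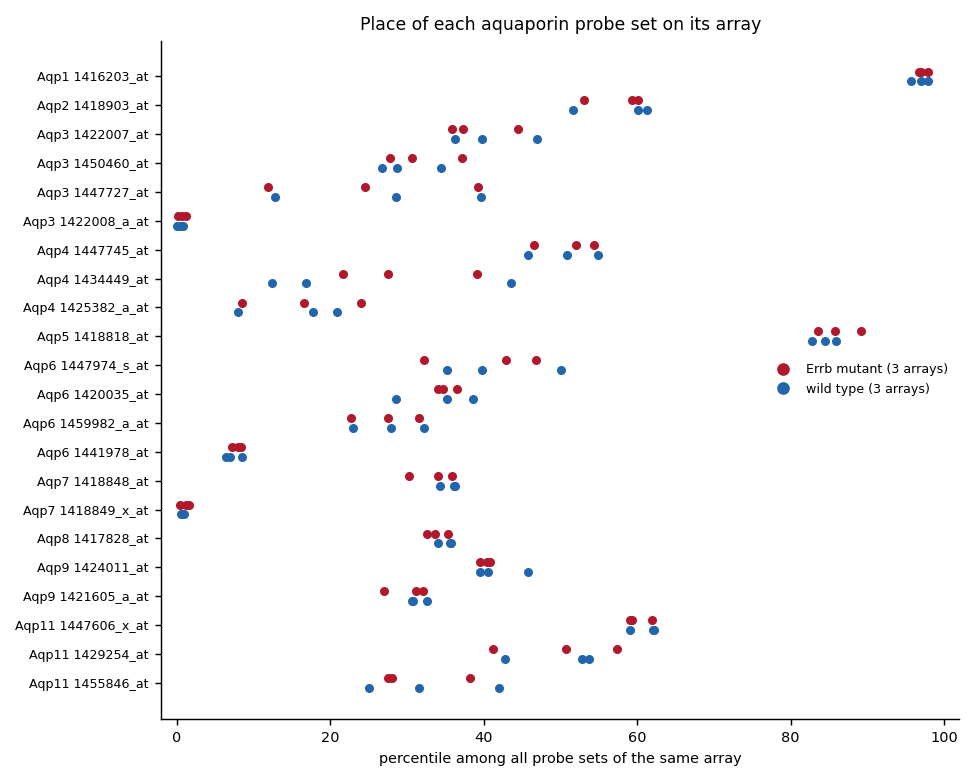
Percentile of each aquaporin probe set among all probe sets of its array, with the 3 Errb mutant arrays in red above the 3 wild-type arrays in blue. Aqp1 and Aqp5 lie above the 80th percentile on all 6 arrays, and the other 20 probe sets lie between 0.0687 and 62.2.

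The remaining 20 probe sets lay between the 0.0687 and the 62.2 percentile. Probe sets bind with different strength, so these places do not rank the genes by abundance, and signal over background is not given. Aqp12 and Mip, 2 further family members outside the 10 and known from pancreas and lens, had mean percentiles of 63.9 and 26.5 in the probe set with the highest level.

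Aqp1, the water channel of red cells, capillary endothelium and many fluid-moving epithelia, had a single probe set (1416203_at). It read 10.16, 11.52 and 10.74 on the mutant arrays of replicates 1 to 3, against 10.27, 11.48 and 10.28 on the wild-type arrays. The mutant was lower in pair 1, almost level in pair 2 and higher in pair 3, and the genotypes overlapped. The difference was 0.13 ± 0.30, with a 95% interval of -0.18 to 0.44 and adjusted p = 0.796. That interval spans 0.880-fold to 1.36-fold. Relative to the median of each array, Aqp1 was 4.07, 4.59 and 4.35 higher in the mutant and 4.199, 4.53 and 3.85 higher in wild type, so pair 3 held the widest gap on that scale as well. No other probe set shared its value on any array, so none of its readings came from the tied values of replicate 1. Without replicate 1 the difference was 0.25 (adjusted p = 0.731), and it was 0.18 without replicate 2 and -0.04 without replicate 3.

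Aqp5, which lets water through the apical membrane of secretory glands, also had 1 probe set (1418818_at). Its values were 8.20, 9.30 and 9.24 in the mutant, against 8.46, 9.01 and 8.70 in wild type. Pair 1 was lower in the mutant by 0.26 and pairs 2 and 3 were higher by 0.28 and 0.54, and the wild-type range lay inside the mutant range. This gave 0.19 ± 0.41 (95% interval -0.22 to 0.59, adjusted p = 0.778). Without replicate 1 the difference was 0.41, with an unadjusted p of 0.0155 and an adjusted p of 0.731. It was 0.14 without replicate 2 and 0.01 without replicate 3, so its size rested on replicate 3 as well. The readings of replicate 1 were shared with 14 other probe sets in the mutant and 11 in wild type, on arrays where 10 and 9 of the 22 aquaporin probe sets shared theirs with 100 or more.

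Aqp4, the channel of astrocyte endfeet and of cochlear supporting cells, was measured by 3 probe sets that differed among themselves. The best expressed (1447745_at) read 5.92, 7.04 and 6.64 in the mutant and 5.86, 6.99 and 6.70 in wild type. These are near equal within each pair, at 0.02 ± 0.07 (adjusted p = 0.953). The second (1434449_at) read 5.54, 5.74 and 4.69 in the mutant and 5.74, 5.10 and 4.13 in wild type. It had the largest difference and the smallest p of all 22, at 0.33 ± 0.46 (95% interval -0.12 to 0.78, unadjusted p = 0.118, adjusted p = 0.750). The mutant was lower by 0.20 in pair 1 and higher by 0.64 and 0.56 in pairs 2 and 3. This probe set was weak, at a mean percentile of 26.8. Its wild-type value of replicate 1 was shared with 122 other probe sets, so the pair 1 difference rests in part on a value common to many. Without replicate 1 its difference was 0.60, with an unadjusted p of 0.00191 and an adjusted p of 0.412, against 0.18 without replicate 2 and 0.22 without replicate 3. This probe set also differed between replicates within each genotype. Relative to the array median it was 0.90 higher in the mutant and 1.74 higher in wild type on the array of replicate 1 than on the mean of the other 2. The third (1425382_a_at) gave 0.04 ± 0.34, with 0.08, 0.36 and -0.32 in pairs 1 to 3, and so did not follow the second in pair 3. A mean over the 3 probe sets put Aqp4 at 0.13 ± 0.20.

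Without replicate 1, 3 of the 22 probe sets had an unadjusted p under 0.05, namely those of Aqp4 and Aqp5, higher in the mutant, and 1455846_at of Aqp11, lower. Of all probe sets 6.44% had such a p there. None of the 22 passed after adjustment, against 0.0155% of all probe sets.

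Aqp2, the vasopressin-regulated channel of the kidney collecting duct, read 6.24, 7.46 and 7.004 in the mutant and 6.15, 7.49 and 7.09 in wild type. Its difference of -0.0097 ± 0.09 was among the smallest of the family (95% interval -0.19 to 0.17, adjusted p = 0.976). Aqp2, Aqp5 and Aqp6 are neighbours on chromosome 15, and their mean differences by the best expressed probe set were -0.0097, 0.19 and -0.08. Aqp3 and Aqp7 are neighbours on chromosome 4 and were at -0.12 and -0.14 by the same measure.

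**Figure D2:**
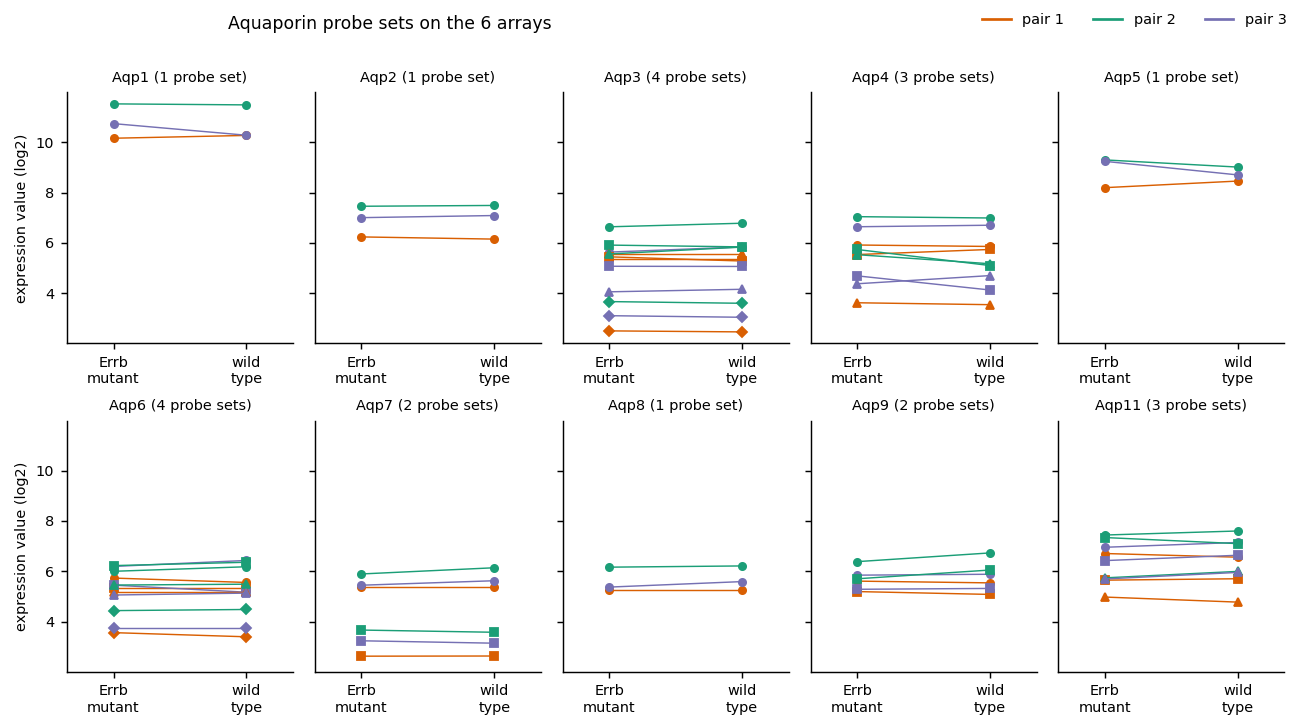
Log2 expression value of every aquaporin probe set on each array, Errb mutant left and wild type right, with a line joining the arrays of a pair (orange pair 1, green pair 2, purple pair 3) and a symbol for each probe set of a gene. The genotypes overlap for all 22 probe sets, and most lines are near level.

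Aqp6, an anion-permeable channel of intracellular vesicles in kidney intercalated cells, had 4 probe sets with differences from -0.08 ± 0.22 to 0.05 ± 0.21. The best expressed (1447974_s_at) read 5.73, 6.001 and 6.19 in the mutant and 5.56, 6.18 and 6.43 in wild type. Of the 4, 2 were exactly equal in pair 1, and another (1441978_at) was exactly equal in pair 3. Aqp8, which passes water and ammonia, read 5.26, 6.16 and 5.37 in the mutant and 5.26, 6.21 and 5.59 in wild type. It was equal in pair 1 and differed by -0.05 and -0.22 in the others (-0.09 ± 0.11, adjusted p = 0.779).

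The aquaglyceroporins were Aqp3, a basolateral channel of collecting duct and skin, Aqp7, the glycerol exit channel of fat cells, and Aqp9, the glycerol entry channel of liver. Their 8 probe sets differed by -0.14 to 0.08, all with adjusted p of 0.750 or more. The best expressed probe set of Aqp3 (1422007_at) read 5.38, 6.64 and 5.64 in the mutant and 5.38, 6.78 and 5.84 in wild type, or -0.12 ± 0.10. That of Aqp7 (1418848_at) read 5.38, 5.89 and 5.45 in the mutant and 5.38, 6.14 and 5.63 in wild type, or -0.14 ± 0.13. These 2 probe sets gave the same number on both arrays of replicate 1, a value that each shared with 241 other probe sets in the mutant and 213 in wild type. It is thus a value common to many probe sets and not a reading of their own.

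The other 3 probe sets of Aqp3 differed by 0.08 ± 0.08, -0.12 ± 0.14 and 0.06 ± 0.01. The last of these (1422008_a_at) was higher in the mutant in all 3 pairs, by 0.04, 0.07 and 0.06, a mean difference above its own SD, which did not pass (adjusted p = 0.827). It lay at or below the 1.23 percentile on every array. Of the 22 probe sets 2 were higher in 3 of 3 pairs, both of Aqp3, and 0 were lower in 3 of 3. That is 9.09% of the members, against 20.5% of all probe sets with 1 direction in 3 pairs (12.1% higher and 8.41% lower). Aqp9 had 2 probe sets with matching pair values, at 0.07, -0.35 and -0.04 for 1424011_at and 0.11, -0.35 and -0.03 for 1421605_a_at. Both were lower in the mutant of pair 2 and near equal in pair 3.

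Aqp11, a channel of the endoplasmic reticulum whose loss in mice gives polycystic kidneys, had 3 probe sets. The best expressed (1447606_x_at) read 6.71, 7.44 and 6.95 in the mutant and 6.56, 7.60 and 7.15 in wild type, at -0.07 ± 0.19 (adjusted p = 0.853). The lowest (1455846_at) was higher by 0.20 in the mutant of pair 1 and lower by 0.26 in both other pairs. The third (1429254_at) differed by -0.06, 0.24 and -0.21 and so followed neither. Of the 6 genes with several probe sets, all probe sets had mean differences of 1 sign in 3 (Aqp4, Aqp9 and Aqp11) and of mixed sign in 3 (Aqp3, Aqp6 and Aqp7).

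**Figure D3:**
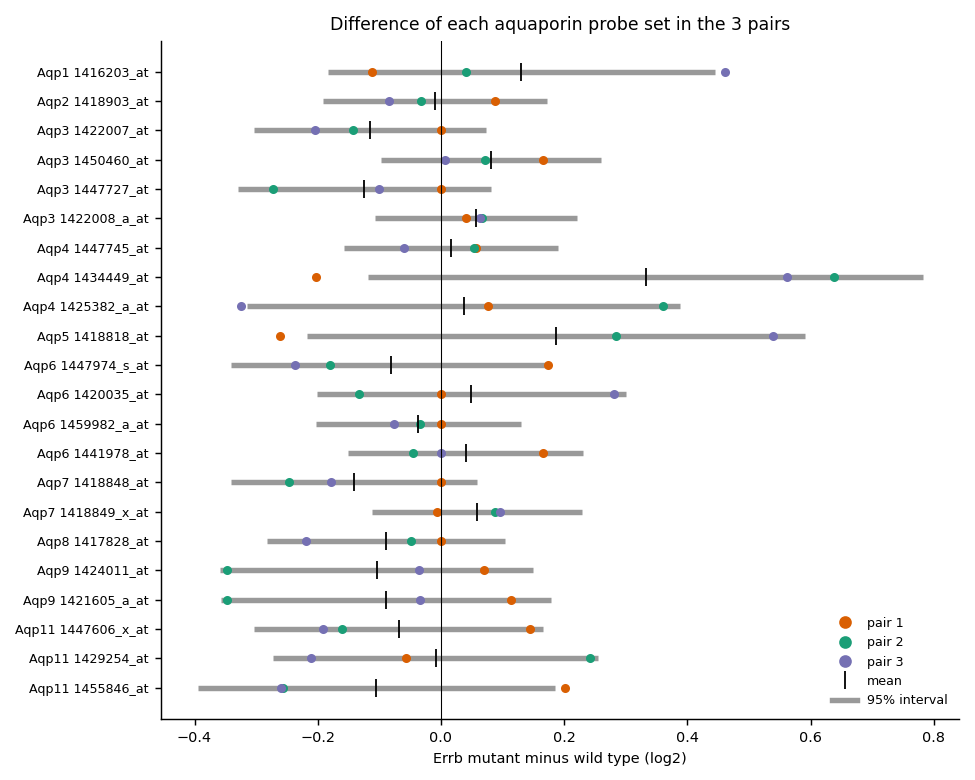
Log2 value of each aquaporin probe set in the Errb mutant minus that in wild type, with 1 point per pair, a black tick for the mean and a grey bar for limma's 95% interval. Every bar crosses 0, and the widest belong to 1434449_at of Aqp4, at -0.12 to 0.78, and to Aqp5, at -0.22 to 0.59.

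Tied values reached deep into the family. On the arrays of replicate 1, 14 of 22 probe sets in the mutant and 14 in wild type had a value shared with other probe sets, 10 and 9 of them with 100 or more others. On the remaining 4 arrays 2 to 3 of 22 did, none with 100 or more. Exactly equal values in both genotypes occurred for 6 of 22 in pair 1 (27.3%, against 34.2% of all probe sets), for 0 in pair 2 and for 1 in pair 3.

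Cell types known to hold aquaporins were followed through their markers. Of 10 capillary endothelium markers, 10 had mean differences below 0 and 0 passed, with a median of -0.20 and pair medians of -0.27, -0.20 and -0.12. Their summed linear level was 1854 to 4921 in the mutant and 2333 to 5161 in wild type. These ranges ignore the pairing. Within pairs 1 to 3 the log2 ratios of the sums, mutant to wild type, were -0.33, -0.07 and -0.14. Of 6 erythroid markers 0 passed, with a median of -0.10 and summed levels of 320.4 to 707 in the mutant and 339 to 1007 in wild type. The pair ratios of their sums were -0.08, -0.51 and -0.44. Of 7 spiral ligament fibrocyte markers 1 passed, Slc12a2, which is also a marginal cell gene, and the list's pair medians were -0.22, 0.03 and 0.02. Summed levels of that list, with Slc12a2 included, were 17552 to 37903 in the mutant and 21385 to 42862 in wild type. The pair ratios of these sums were -0.285, -0.18 and -0.11. Slc12a2 itself differed by -1.33, -1.31 and -1.02 in the pairs, so these ratios are not those of fibrocyte genes alone. Sums without Slc12a2 were not taken. Aqp1, expressed by all 3 cell types, differed by -0.11, 0.04 and 0.46 in the same pairs, and the part of these cell types in its values was not tested.

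For Aqp5, the nearest list was that of spindle, root and outer sulcus cells. Of its 6 markers 0 passed, 4 had mean differences above 0 and the median was 0.21, with 0.11, 0.29 and 0.14 in pairs 1 to 3. Summed levels were 9482 to 21207 in the mutant and 8197 to 16251 in wild type. The log2 ratios of the sums, mutant to wild type, were 0.21, 0.38 and 0.22 in pairs 1 to 3. For Aqp4, the 6 measured markers of supporting cells and Reissner membrane were all above 0 in mean difference and 0 passed. Their median was 0.40, with 0.05, 0.73 and 0.25 in the pairs. Their summed levels were 1582 to 3902 in the mutant and 1240 to 1683 in wild type, with pair ratios of 0.28, 1.21 and 0.50. Neuron markers had pair medians of 1.89, 0.32 and 0.24 and summed levels of 625 to 2116 in the mutant and 539.5 to 841 in wild type. Their pair ratios were 1.53, 0.07 and 0.21. The supporting cell list had its higher values in pairs 2 and 3, as Aqp5 and the second probe set of Aqp4 did. The best expressed and the third probe set of Aqp4 did not, at 0.06, 0.05 and -0.06 and at 0.08, 0.36 and -0.32. Macrophage markers had pair medians of -0.10, 0.42 and 0.18. The part of either list in the values of these aquaporins was not tested. None of the markers is at 0, since RMA values have no true zero.

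**Figure D4:**
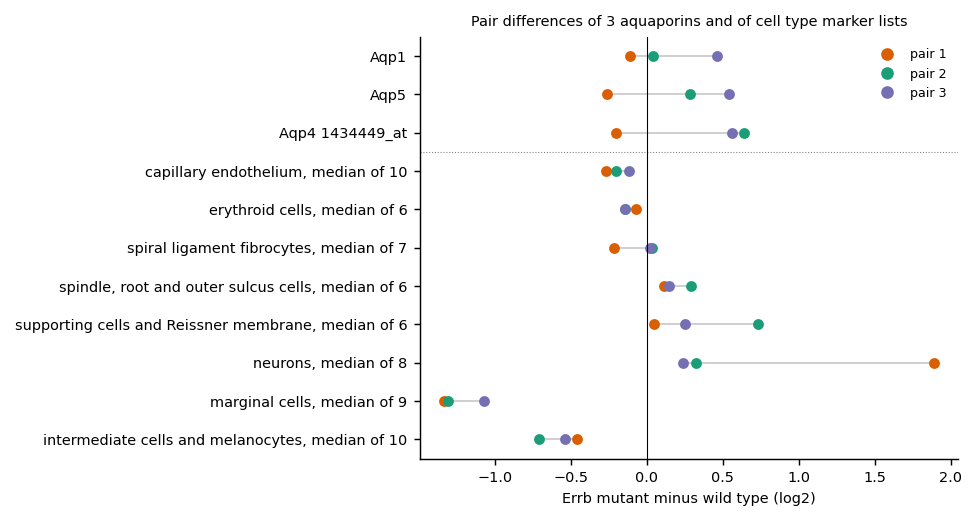
Log2 value in the Errb mutant minus that in wild type, 1 point per pair, for Aqp1, Aqp5 and the second probe set of Aqp4, above the medians of 8 cell type marker lists. That Aqp4 probe set was taken for its smallest p, and the other Aqp4 probe sets are not shown. The 3 aquaporins lie below 0 in pair 1 and above it in pairs 2 and 3, and marginal cell markers lie between -1.33 and -1.07 in all 3 pairs.

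Marginal cell genes differed far more in the same fit. Of 9 measured markers 4 passed, all lower in the mutant, against 0.148% of all genes by the best expressed probe set. All 9 had mean differences below 0. Their median was -1.22, and Kcne1, the accessory subunit of the apical potassium channel, fell by 4.32 on the log2 scale (adjusted p = 0.00373). Intermediate cell markers had a median of -0.64 with 0 of 10 passing, and 1 of 6 basal cell markers, Gjb6, passed. Of the other lists, 8 neutrophil, 8 macrophage, 5 Schwann cell and glial, 8 skeletal muscle and 7 cartilage and bone markers held 0 that passed, with medians of 0.03, 0.12, -0.0023, -0.05 and 0.10. Aqp4 is also a skeletal muscle gene and Aqp9 a leukocyte gene, and neither the muscle nor the neutrophil list had a member that passed.

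Genes that act with aquaporins were described by their best expressed probe sets, of which 0.148% passed over all 18193 genes, with a median of 0.0036. The complex that anchors Aqp4 at the membrane had 0 of 8 measured members passing and a median of 0.03. Its best expressed members Agrn, a basement membrane proteoglycan, and Dag1, which encodes dystroglycan, differed by 0.05 ± 0.29 and 0.08 ± 0.31. Vasopressin signalling and Aqp2 trafficking had 0 of 17 passing and a median of 0.01. There Gnas, the stimulatory G protein subunit, differed by -0.15 ± 0.35 and Prkaca, a catalytic subunit of protein kinase A, by 0.17 ± 0.12.

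Cell volume and osmotic response genes had 0 of 11 passing and a median of 0.07. The best expressed were Clns1a, a chloride conductance regulator, at 0.10 ± 0.08 and the taurine transporter gene Slc6a6 at 0.09 ± 0.10. In this list 2 of 11 genes had an unadjusted p under 0.05 and were chosen after their values were seen. By the best expressed probe set of all 18193 genes, 1337 had such a p and 194 did not overlap between genotypes. Of the same 18193 genes, 2351 were higher and 1642 lower in the mutant in 3 of 3 pairs. Lrrc8d, a subunit of the volume-regulated anion channel, read 9.41, 10.01 and 9.94 in the mutant and 10.03, 10.34 and 10.28 in wild type. It was lower in 3 of 3 pairs and the genotypes did not overlap, at -0.43 ± 0.17 (adjusted p = 0.356), which did not pass. Slc5a3, the sodium-coupled inositol transporter, read 10.27, 11.09 and 10.62 in the mutant and 10.11, 10.87 and 10.39 in wild type. It was higher in 3 of 3 pairs, with overlapping genotypes, at 0.20 ± 0.04 (adjusted p = 0.614), and did not pass. Glycerol and urea handling genes had 0 of 8 passing and a median of -0.02. Their best expressed members were Gpam, the first enzyme of glycerolipid synthesis (0.10 ± 0.12), and Gpd2, the mitochondrial glycerol phosphate dehydrogenase (-0.04 ± 0.17). Lipe, the hormone-sensitive lipase gene, was the 1 gene of that list with an unadjusted p under 0.05 and was chosen for it, at 0.19 ± 0.03 and higher in 3 of 3 pairs (adjusted p = 0.629). Aqp12 and Mip differed by -0.06 ± 0.13 and -0.08 ± 0.04.

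Likeness to other genes was measured as the Euclidean distance between the 3 pair differences, over 11502 candidate genes. Candidates were genes whose best expressed probe set had a mean level at or above the median of all probe sets. Weak probe sets, like the second one of Aqp4, were thus not searched. Closest to Aqp1, taken because its probe set had the highest array value and not as the most abundant, were Ppp3cb, Specc1 and Stat5b, at distances of 0.0055, 0.02 and 0.02. Closest to the second probe set of Aqp4, the one with the smallest p, were Iigp1, Xist and Twist1, at 0.15, 0.17 and 0.18. With only 3 differences per gene and so many genes, short distances are easily found. Xist tracks the sex of the pooled mice, so its differences of -0.23, 0.70 and 0.40 in pairs 1 to 3 stand beside those of this probe set, and the part of sex in it was not tested.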

How the data were processed

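Total RNA of 6 pools was hybridised to 1 Affymetrix array each. RMA produced the deposited log2 values, per the submitters' processing notes, which name no version or settings. Their range fits a log2 scale, and they entered the tests as deposited. Of 45101 probe sets, 64 controls were left out.

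The members and gene lists were chosen with earlier results of these data known. Genotypes were compared with limma 3.58.1 under R 4.3.3 (two-sided, lmFit and eBayes) and Benjamini-Hochberg adjustment over 45037 probe sets, blocking on replicate number. The numbers come from the labels. Arrays were paired because the comparison was set by replicate number, which both genotypes share. Same-numbered arrays also deviated together (r of 0.879, 0.818 and 0.746 across probe sets, all over 0.1). That r does not show what the arrays of a pair had in common. Nothing in the labels shows independent breeding of the pools, and p-values measure only the spread among these arrays. With 3 pairs an exact sign-flip test cannot go below p = 0.25, and the number of arrays limits the precision.

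Symbols were taken from the platform annotation, and all 22 gene identifiers matched a RefSeq table (GRCm38.p6) with 0 symbols changed. The probe set with the highest mean represents a gene. Of 163 listed genes in 5 pathway and 14 cell type lists 13 matched no annotated symbol and were not used here. Named were every member, up to 3 passing or else the 2 best expressed genes of each pathway list, likewise up to 2 of each cell type list though not all are printed, and the 3 nearest genes of 2 members. The fits were tested on simulated data. Alternatives were no block, quantile normalization, median centring, other eBayes options, array weights, a filter on low values, leaving out cross-hybridising probe sets or each pair, other thresholds and averaging all probe sets of a gene.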

Additional observations from a re-analysis of the deposited data

How the results depend on the processing

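No aquaporin probe set passed under any of the alternatives run, and the lowest adjusted p was 0.412, for 1434449_at of Aqp4 without replicate 1. Of 203 alternative values of the 22 probe sets, 185 kept their direction and 18 changed it, with reversed values between -0.12 and 0.093. Dropping the block, other eBayes options, the filter on low values and leaving out cross-hybridising probe sets cannot change a probe set's difference. Those values kept their direction by design, so the 185 overstate how stable the directions were. With no replicate block 3 of all probe sets passed (0 aquaporins), with array weights 77, at an adjusted p of 0.01 and 0.1 6 and 92, and without 1 replicate 0 to 7, with 7 without replicate 1 and 0 without replicate 2 or 3. Aqp2 was at 0.0035 with median centring and 0.0058 with array weights. Aqp6 1420035_at was at -0.013 with array weights, and Aqp11 1429254_at at 0.0043, 0.0044 and 0.050 with quantile normalization, median centring and array weights. Leaving out 1 replicate gave -0.036 to 0.25 for Aqp1, -0.058 to 0.028 for Aqp2, -0.0039 to 0.055 for Aqp4 1447745_at, -0.12 to 0.22 for Aqp4 1425382_a_at, -0.067 to 0.14 for Aqp6 1420035_at, -0.023 to 0.083 for Aqp6 1441978_at, -0.19 to 0.017 for Aqp9 1424011_at, -0.19 to 0.039 for Aqp9 1421605_a_at and -0.13 to 0.093 for Aqp11 1429254_at. The signs of these probe sets thus depended on single pairs, and the cause was not tested. The other aquaporin probe sets kept their sign when any 1 replicate was left out. Some of them came close to 0, such as Aqp5 at 0.011 without replicate 3. Of the 22 probe sets, 8 remained when the lowest 40% by mean over all arrays were left out and 19 without cross-hybridising ones, and 0 passed. The mean over probe sets moved Aqp4 to 0.13 and left the other 5 genes with several probe sets within their SD. The array values hold no signal over background, which limits what the weak members can show.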
